A study of Arabidopsis thaliana with 12 samples.

Results

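The comparison described here is that of cycloheximide (CHX) without dexamethasone (DEX) against neither agent in Arabidopsis root protoplasts, 6 of the 12 arrays of the series, chosen by their treatment labels. CHX-treated cells received 35 µM CHX and untreated cells received neither agent, with 3 arrays in each group, and 22746 probe sets were compared after the 64 Affymetrix controls were left out. All 12 arrays are of root protoplasts, cells freed of their walls, from ecotype Columbia, and the labels call them transformed and name the construct ABI3-GR. ABI3 is a transcription factor of seed maturation, and DEX moves the introduced factor into the nucleus, per the labels. Untreated cells therefore carried the construct too. No array of untransformed protoplasts was used here, and the share of cells that took up the construct is not given in these sources. The other 6 arrays, which serve here only as a second measurement of the CHX effect, received 10 µM DEX with 35 µM CHX or 10 µM DEX alone. Nothing in the labels states that the 3 replicates came from separate protoplast preparations, and the p-values below then cover only the spread among these arrays. How long the cells were treated is not given in these sources.

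CHX blocks translation by binding the large ribosomal subunit and halting elongation. Because labile repressors and factors of mRNA decay are then no longer renewed, such a block is known to raise the transcripts of many early-response genes in plants and animals, an effect called superinduction. In assays with a steroid-inducible transcription factor, CHX is given so that only targets that need no newly made protein respond, and cells with CHX alone are the baseline of that test.

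Median intensity was 139.0 to 167.0 on the CHX arrays and 125.8 to 185.7 on the untreated arrays, and 5.23% to 9.66% of probe sets with CHX and 5.89% to 17.9% without lay at or under a floor of 16. Correlations across probe sets were 0.938 to 0.950 within CHX, 0.910 to 0.941 within untreated cells and 0.785 to 0.828 between the groups. Hybridisation controls were nearly missing on CHX replicate 1 (geometric mean 230.7), and 5261 probe sets were called for CHX alone without that array, 2144 higher and 3117 lower. The 3′ to 5′ signal ratio of the ubiquitin control, which rises as RNA or labelling gets less complete, was 3.92, 3.95 and 3.89 with CHX against 6.22, 5.27 and 5.35 without, and that of GAPDH was 1.18, 1.27 and 1.05 against 1.83, 1.36 and 1.71. Both ratios were lower on every array of CHX alone than on every untreated one, while the actin ratios overlapped, and the part of this difference in the results was not tested. Of 42 marker entries for root cell types, leaf and seed, 5 were measured. The root hair genes EXPA7 and EXPA18 and the cortex gene AT1G62500 had log2 intensities of 4 (the floor) to 6.61, low in both groups. The root-abundant gene PYK10 had 8.44 to 8.66 with CHX and 13.16 to 13.55 in untreated cells. RCA, the leaf gene of Rubisco activase, had 7.20, 7.45 and 6.83 with CHX and 8.19, 8.03 and 8.80 in untreated cells. The root label thus rests on PYK10 alone among measured markers, and in RNA of mixed cells a smaller share of cells of a type cannot be told apart from less RNA per cell.

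CHX changed 26.9% of the probe sets, with more falls than rises but more rises among the largest changes. Of 22746 probe sets, 2473 (10.9%) were called higher and 3653 (16.1%) lower by limma at an adjusted p under 0.05. Arrays of the 2 groups did not overlap for 3692 higher (16.2%) and 5452 lower (24.0%). The median log2 change was 1.71 among those called higher and -1.57 among those called lower, against -0.05 over all probe sets. Changes of at least 4-fold were similar in number (977 higher and 1023 lower). At 16-fold or more there were 167 higher and 51 lower, and at 32-fold or more 72 and 13. The excess of large rises is also seen in the plot of group means. Part of the range is closed by the floor: 15 of 434 probe sets at the floor on all untreated arrays were called higher, and 19 of 449 at the floor on all CHX arrays were called lower. The share of calls that were rises was 40.4%, and 46.3% after quantile normalization or 48.0% with arrays centred on their medians. With a change of more than 2-fold required in the test, 1003 higher and 1031 lower remained past the threshold. Over the 13355 genes with 1 probe set each, 1345 (10.1%) were higher and 1802 (13.5%) lower, 23.6% in all, and these shares are the background for the gene lists below.

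**Figure D1:**
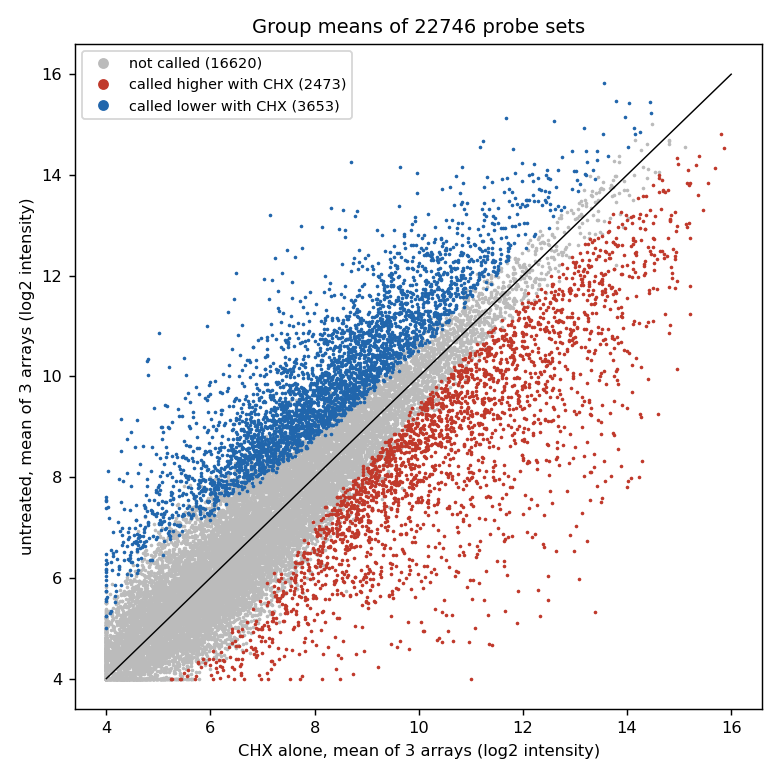
Mean log2 intensity of each of the 22746 probe sets over the 3 CHX arrays (horizontal) and the 3 untreated arrays (vertical), with the line of equality. Probe sets called higher with CHX (2473) lie to the right of the line and reach farther from it than the 3653 called lower.

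The 15 largest rises were between 52.2-fold and 92.6-fold. They were picked among called genes whose arrays did not overlap and were all above the floor, so their separation follows from that rule. AT1G14730, a cytochrome b561 family gene, had log2 intensities of 12.18, 12.46 and 12.22 on the 3 CHX arrays, against 5.96, 5.10 and 6.21 on the untreated ones (log2 change 6.53, SE 0.55; limma adjusted p = 1.17e-06). The neighbouring genes AT5G07870 and AT5G07860, both for acyltransferases of the BAHD family, rose together. AT5G07870 read 12.44, 12.50 and 12.48 with CHX and 6.84, 6.06 and 5.19 without (log2 change 6.44, SE 0.32; limma adjusted p = 1.8e-08). For AT5G07860 the arrays gave 12.83, 12.80 and 12.27 with CHX and 7.06, 5.82 and 6.72 without (log2 change 6.10, SE 0.35; limma adjusted p = 4.55e-08). In both, the CHX arrays differed by no more than 0.56 among themselves, and the lowest of them was at least 5.21 above every untreated array.

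Regulatory genes stood among these rises. AT1G19210, for an ERF transcription factor, had 14.15, 14.11 and 13.95 with CHX and 7.59, 7.84 and 8.53 without (log2 change 6.09, SE 0.23; limma adjusted p = 2.51e-09). ORA47, an ERF factor known to activate jasmonate synthesis genes, had 12.42, 12.45 and 12.32 with CHX and 6.94, 5.96 and 6.92 without (log2 change 5.79, SE 0.31; limma adjusted p = 2.7e-08). AT2G17660, of the family of the immune regulator RIN4, had 14.12, 14.14 and 13.75 with CHX against 8.002, 7.88 and 7.51 in untreated cells (log2 change 6.21, SE 0.23; limma adjusted p = 2.51e-09). In all 3 genes the groups did not overlap, which the rule for naming required. AT1G55450, for a methyltransferase family protein, was at 14.31, 14.34 and 14.20 with CHX and 8.24, 8.44 and 8.28 without. AT5G66310, which encodes a kinesin motor, had 12.99, 13.22 and 12.85 with CHX and 7.99, 5.02 and 8.07 without (log2 change 5.995, SE 0.61; limma adjusted p = 6.3e-06), with untreated replicate 2 below the other two. AT5G28610 showed the same low array, with 13.78, 13.61 and 13.15 under CHX and 8.70, 5.27 and 8.80 without. The others were AT2G37810 (6.18), a C1-domain protein gene, AT5G28630 (6.11), AT1G51915 (6.04), the pseudogene AT3G48650 (5.74), the tyrosine aminotransferase family gene AT4G28420 (5.71) and AT1G05575 (5.71), as log2 changes. Among probe sets with no gene in the annotation used here, the largest rises were those of 257917_at (7.11) and 263451_at (6.49).

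The largest falls included genes for secreted, vacuolar and wall-linked proteins. The 15 named, picked by the same rule as the rises, fell between 15.9-fold and 37.3-fold. PYK10, the root beta-glucosidase of ER bodies, had 8.55, 8.66 and 8.44 with CHX and 13.16, 13.55 and 13.19 without (log2 change -4.75, SE 0.18; limma adjusted p = 2.51e-09). JAL33, a jacalin-related lectin, had 7.16, 7.14 and 6.79 with CHX and 11.85, 12.05 and 11.91 without (log2 change -4.91, SE 0.48; limma adjusted p = 4.58e-06). AT1G62660, a vacuolar invertase, which splits sucrose, had 7.20, 7.81 and 7.42 with CHX and 12.37, 12.56 and 12.58 without (log2 change -5.03, SE 0.26; limma adjusted p = 2.13e-08). In each of these the least bright untreated array was at least 4.50 above the brightest CHX array.

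HCT, an acyltransferase of lignin synthesis, had 5.95, 6.17 and 7.22 with CHX and 11.22, 11.86 and 11.53 without (log2 change -5.09, SE 0.48; limma adjusted p = 3.68e-06). AT2G37130, a class III peroxidase gene, had 8.07, 8.15 and 7.05 with CHX and 12.03, 13.14 and 12.49 without (log2 change -4.80, SE 0.34; limma adjusted p = 2.68e-07). OSM34, an osmotin, read 8.73, 8.64 and 8.35 with CHX and 13.09, 13.03 and 12.61 without (log2 change -4.33, SE 0.19; limma adjusted p = 8.27e-09). AT4G01610 encodes a cathepsin B-like cysteine protease and read 10.24, 10.07 and 9.60 with CHX and 14.04, 14.04 and 14.04 without. The deepest of these falls was that of AT2G30840, a 2-oxoglutarate-dependent dioxygenase gene (4.90, 4.53 and 4.96 with CHX and 10.27, 9.94 and 9.84 without; log2 change -5.22, SE 0.56; limma adjusted p = 1.02e-05). This gene was near the floor on all CHX arrays, so its fold depends on the background. The others were AT1G23040 (-4.86), the HSP20-like gene AT5G54660 (-4.74), the phosphodiesterase family gene AT1G49740 (-4.50), AT5G43180 (-4.41), AT1G62480 (-4.30), the MATE transporter gene AT3G26590 (-4.06) and AT3G11510 (-3.99), for a protein of the small ribosomal subunit, as log2 changes. Of probe sets with no gene, 260716_at (-6.07) and 266415_at (-5.56) fell the most.

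**Figure D2:**
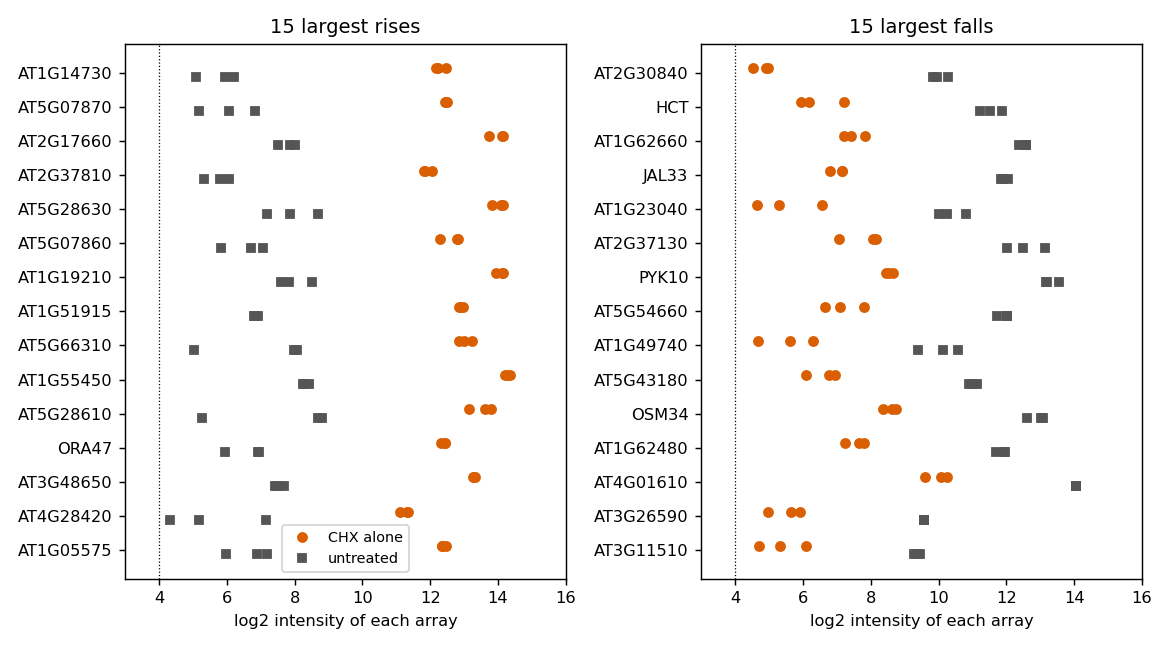
Log2 intensity of each array (horizontal) for the 15 largest rises and the 15 largest falls among genes with no array at the floor, with CHX as circles and untreated cells as squares. The dotted line is the floor. No CHX array overlaps an untreated array in any of the 30 genes, which follows from the rule that chose them.

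Most transcripts for proteins of the ribosome, on which CHX acts, fell. Of 84 measured genes for proteins of the 60S subunit, 58 fell and 1 rose (median log2 change -1.63), and of 49 for the 40S subunit 31 fell and none rose (median -1.58), against 13.5% of all genes lower and a median of -0.01. Changes ran from -4.23 to 1.57 in the 60S list, so the fall was not shared by every gene. AT3G24830, for the 60S protein L13a, had 8.83, 8.73 and 9.15 with CHX and 12.39, 11.998 and 12.19 without (log2 change -3.29, SE 0.29; limma adjusted p = 1.84e-06). For AT2G01250, a gene of the 60S protein L7, the arrays gave 7.08, 6.90 and 8.30 with CHX and 10.31, 10.29 and 10.20 without (log2 change -2.84, SE 0.30; limma adjusted p = 1.04e-05). In both genes every CHX array was below every untreated one. AT1G74270, for the 60S protein L35a, had 5.95, 4.0 and 5.56 with CHX, 1 array being at the floor, and 10.05, 8.99 and 9.17 without, so its change (-4.23) depends on the floor. On the 40S side, AT3G11510 (S14) had 4.70, 5.32 and 6.09 with CHX and 9.45, 9.28 and 9.35 without (log2 change -3.99, SE 0.63; limma adjusted p = 0.000284). AT4G34670 (S3a) read 9.91, 9.96 and 9.81 with CHX and 11.96, 12.59 and 11.84 without (log2 change -2.24, SE 0.19; limma adjusted p = 1.53e-06). AT3G02560 (S7) and AT2G32060 (S12) changed by -2.88 and -2.43 on the log2 scale, and the 60S gene AT3G16080 (L37) by -2.80, with its call lost without untreated replicate 1 or CHX replicate 2. Of the 60S proteins that line the CHX site, 1 gene was measured, near the floor in both groups and not called. Many ribosomal proteins are encoded by similar gene copies, and the probe sets were not checked for telling them apart.

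Genes of ribosome assembly rose more often than they fell. Of 28 genes for nucleolar and ribosome biogenesis proteins, 9 rose (32.1%) and 4 fell (14.3%), against 10.1% and 13.5% of all genes. The median was 0.55 (0.28 to 0.69 over the alternatives). AT5G38720 had 10.35, 10.29 and 10.04 with CHX and 8.09, 8.75 and 8.43 without (log2 change 1.81, SE 0.26; limma adjusted p = 0.000119). AT5G15550, for a relative of the assembly factor WDR12, had 10.27, 10.42 and 10.34 with CHX and 8.57, 8.28 and 9.13 without (log2 change 1.68, SE 0.21; limma adjusted p = 4.56e-05). IMP4, part of the U3 complex that processes ribosomal RNA, had 9.41, 9.54 and 9.44 with CHX and 7.45, 7.71 and 8.27 without (log2 change 1.65, SE 0.24; limma adjusted p = 0.000129). All CHX arrays of these 3 genes were above all untreated ones. Against that direction, AT5G08180, an L7Ae family gene, fell by 1.67 on the log2 scale, a call lost without untreated replicate 3 or CHX replicate 2. Without either of those arrays, or with centring, 2 members fell in place of 4.

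Translation factors and charging enzymes fell or missed the threshold. Of 16 genes for initiation and elongation factors, 6 fell (37.5%) and none rose (median -0.54), against 13.5% of all genes lower and 10.1% higher. EIF4A-2, the RNA helicase of initiation, had 10.67, 10.59 and 10.37 with CHX and 12.10, 12.35 and 11.65 without (log2 change -1.49, SE 0.23; limma adjusted p = 0.000251). AT5G44320, a subunit gene of eIF3, had 8.81, 9.35 and 8.98 with CHX and 10.94, 10.98 and 11.30 without (log2 change -2.03, SE 0.23; limma adjusted p = 1.54e-05). The count of falls was 3 without CHX replicate 3 and 3 with centring. Of 14 aminoacyl-tRNA synthetase genes, which encode the enzymes that load amino acids onto tRNAs, 3 fell and none rose. The share lower, 21.4% of few genes, was near the 13.5% of all genes. Changes were above 0 in 5 of the 14, and the median was -0.34 (-0.46 to -0.18 over the alternatives). The falls were those of AT5G27470 (seryl, -1.80), AT4G13780 (methionyl, -1.54) and ALATS (alanyl, -1.33).

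Some genes of mRNA and protein turnover fell and none rose in the main fit, where 13.5% of all genes were lower and 10.1% higher. Of 9 genes for deadenylation and mRNA decay, 2 fell (22.2%), AT1G15920 (-1.64) and AT5G10960 (-1.15), both for relatives of the CAF1 deadenylase. The list median was -0.41 (-0.72 to -0.11 over the alternatives), and up to 2 members were called higher in an alternative. In nonsense-mediated decay, which itself needs translating ribosomes, AT2G39260 (UPF2) fell by 0.61 on the log2 scale, a call lost when any one of untreated replicates 2 and 3 or the 3 CHX arrays was left out. UPF3 had 9.68, 9.40 and 9.07 with CHX and 8.85, 9.41 and 9.07 without, and did not pass (limma adjusted p = 0.458). All 9 measured proteasome genes had changes under 0 and 4 fell (44.4%, median -0.78), a count that was 2 with centring. Among them were AT2G32730 (-1.13) and AT5G23540 (-1.02), for RPN2 and RPN11 of the regulatory particle.

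**Figure D3:**
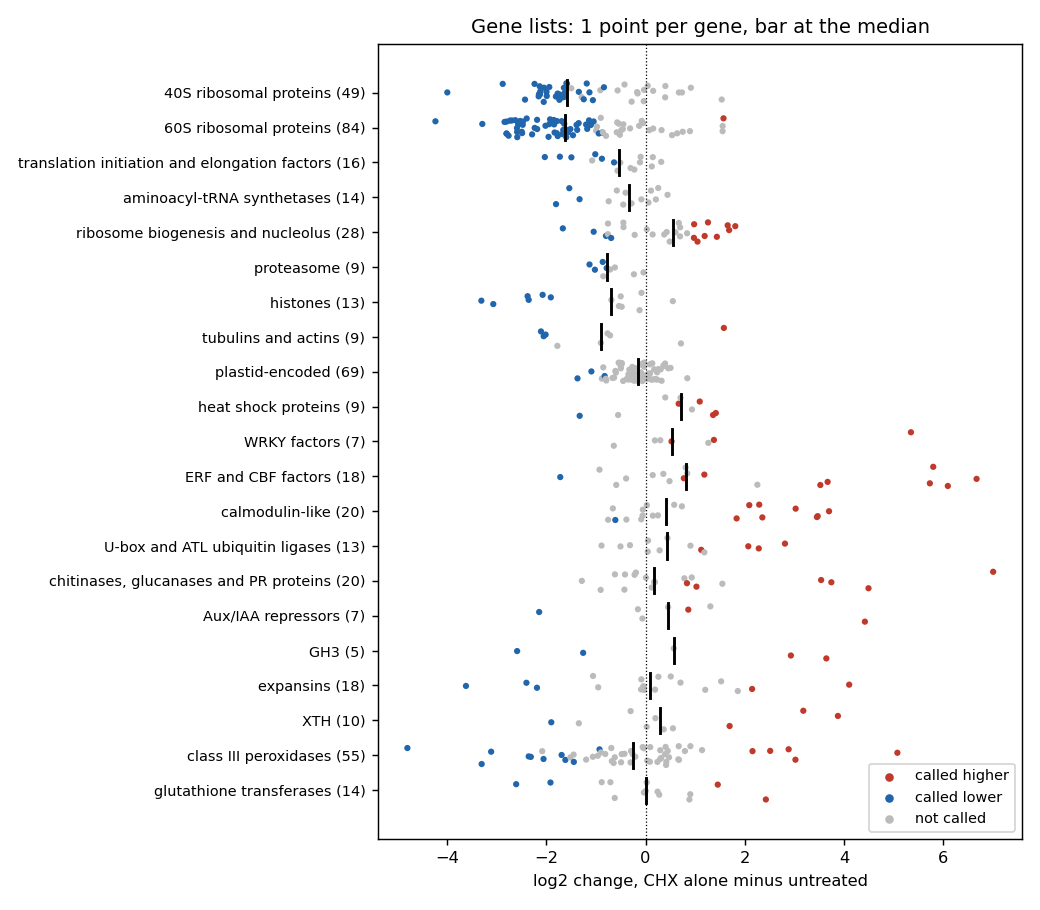
Log2 change with CHX alone (horizontal) of every measured gene in 21 gene lists, with the number measured in brackets and a bar at the median. Ribosomal protein genes lie mostly to the left of 0, while ERF, calmodulin-like and chitinase genes form a tail to the right, with medians of 0.82, 0.41 and 0.18.

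Genes of early signalling rose in part of each family. Of 18 ERF and CBF transcription factor genes 8 rose and 1 fell, with a median of 0.82, against 10.1% of all genes higher. Besides AT1G19210 and ORA47, AT1G22810 had 11.16, 11.37 and 11.53 with CHX and 4.0, 5.21 and 4.85 without, and AT1G33760 had 10.95, 9.99 and 10.42 with CHX and 4.67, 4.0 and 5.51 without. Both were at the floor on 1 untreated array, so their log2 changes of 6.67 and 5.73 depend on it. WRKY53, a regulator of senescence and defence, had 14.76, 14.64 and 14.38 with CHX and 9.91, 9.03 and 8.80 without (log2 change 5.34, SE 0.25; limma adjusted p = 1.07e-08). Of 7 WRKY genes 3 rose (median 0.52), the others being WRKY6 (1.38) and WRKY22 (0.52), which lost its call without untreated replicate 1 or 3, without CHX replicate 1, after quantile normalization, with centring and without the variance trend. Of 6 genes for ZAT-type zinc finger factors, 2 rose and 1 fell: STZ, a repressor induced by salt and cold, had 15.13, 15.06 and 14.71 with CHX and 12.06, 11.88 and 11.75 without (log2 change 3.07, SE 0.18; limma adjusted p = 5.25e-08), AT3G46070 changed by 1.54 and AT2G28200 by -1.51. The list median was 0.08, and -0.19 without untreated replicate 2 or CHX replicate 3.

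Auxin response families held calls in both directions, as did genes overall (10.1% higher and 13.5% lower). Of 5 GH3 genes, whose enzymes join auxin and other acids to amino acids, 2 rose and 2 fell. GH3.3 had 14.94, 15.04 and 14.64 with CHX and 11.77, 12.15 and 11.90 without (log2 change 2.93, SE 0.19; limma adjusted p = 1.28e-07). GH3.1 had 10.75, 10.42 and 10.26 with CHX and 6.71, 6.64 and 7.16 without (log2 change 3.64, SE 0.22; limma adjusted p = 8.57e-08). In the other direction, GH3.17 had 9.49, 9.49 and 9.44 with CHX and 11.89, 12.46 and 11.83 without (log2 change -2.59, SE 0.27; limma adjusted p = 8.51e-06), and WES1 (GH3.5) changed by -1.26. Of 7 Aux/IAA genes, for short-lived repressors of auxin response, 2 rose (28.6%) and 1 fell (14.3%, near the share of all genes). IAA30 had 11.60, 11.93 and 11.65 with CHX and 7.28, 6.70 and 7.95 without (log2 change 4.42, SE 0.34; limma adjusted p = 6.62e-07). IAA34 rose by 0.86 and IAA18 fell by 2.14 on the log2 scale. The Aux/IAA median of 0.45 was -0.23 without untreated replicate 2. The 2 SAUR genes (auxin-induced) and 2 type-A response regulator genes (of cytokinin signalling) measured were not called.

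Calcium sensors and ubiquitin ligases gave a further set of rises, where 10.1% of all genes were higher and 13.5% lower. Of 20 calmodulin-like genes 8 rose and 1 fell (median 0.41, 0.01 without untreated replicate 2), the single fall being lost when any one of the 6 arrays was left out. AT3G01830 had 13.25, 13.22 and 12.91 with CHX and 9.26, 9.46 and 9.58 without (log2 change 3.69, SE 0.17; limma adjusted p = 1.12e-08). CML38, known for its response to wounding and low oxygen, had 13.91, 13.89 and 13.63 with CHX and 10.64, 10.78 and 10.95 without (log2 change 3.02, SE 0.20; limma adjusted p = 1.9e-07). CML23 and AT3G10300 rose by 3.47 and 3.45 on the log2 scale. Of 13 U-box and ATL ubiquitin ligase genes 4 rose (30.8%) and none fell (median 0.44, and 0.04 to 0.89 over the alternatives). PUB22, PUB23 and PUB24, which act together to damp immune signalling, all rose: PUB23 had 14.43, 14.48 and 14.10 with CHX and 12.02, 12.31 and 11.83 without (log2 change 2.28, SE 0.22; limma adjusted p = 4.54e-06), PUB24 changed by 2.81 and PUB22 by 2.07. PUB19 rose by 1.12. EFR, the receptor for bacterial elongation factor Tu, rose by 1.78, a call lost without CHX replicate 2.

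Of 20 chitinase, glucanase and pathogenesis-related genes 6 rose and none fell, against 10.1% of all genes higher and 13.5% lower. The median of the 20 was only 0.18 (-0.05 without untreated replicate 2). The rises were thus those of a few genes. Of 6 measured chitinase family genes in a row on chromosome 2, 4 rose, AT2G43590, AT2G43610 and AT2G43620 the most, and 2, one of them lying between these, were not called. AT2G43610 had 13.82, 13.84 and 13.60 with CHX and 9.88, 10.18 and 9.98 without (log2 change 3.74, SE 0.20; limma adjusted p = 3.1e-08). AT2G43620 had 8.91, 8.01 and 8.55 with CHX and was at the floor on all 3 untreated arrays, so it rose at least 22.5-fold (limma adjusted p = 4.98e-06), and AT2G43590, with 11.05, 11.41 and 10.54 under CHX and likewise at the floor without, rose at least 128-fold. AT4G01700, of the same family, had 11.66, 12.15 and 12.12 with CHX and 8.62, 8.22 and 8.48 without (log2 change 3.54, SE 0.18; limma adjusted p = 2.2e-08).

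Some chromatin and cytoskeleton genes fell. Over all genes 13.5% were lower and 10.1% higher, and the lists here are short. Of 13 histone genes 6 fell (46.2%) and none rose (median -0.69). Of the 4 largest falls 3 were of linker histones, which sit between nucleosomes. HIS1-3 had 6.39, 6.78 and 7.45 with CHX and 10.02, 10.34 and 10.19 without (log2 change -3.31, SE 0.27; limma adjusted p = 9.43e-07). AT1G06760 had 9.65, 9.54 and 9.35 with CHX and 12.56, 12.61 and 12.57 without (log2 change -3.07, SE 0.20; limma adjusted p = 1.44e-07). AT2G30620, the remaining linker histone, changed by -2.35, and HTB4, a core histone H2B gene, by -2.38. Of 9 tubulin and actin genes 3 fell, all tubulins: TUB7 (-2.11), TUA6 (-2.05) and TUA1 (-2.01). ACT11 was called higher (1.58) near the floor, and the call was lost without any single one of the 6 arrays. Of 9 heat shock genes 4 rose and 1 fell (median 0.70). The small heat shock gene AT1G52560 had 10.22, 9.75 and 10.37 with CHX and 8.79, 8.69 and 8.63 without (log2 change 1.42, SE 0.30; limma adjusted p = 0.00277), and the cytosolic HSP70 gene AT3G09440 had 10.21, 10.03 and 10.22 with CHX and 10.94, 11.85 and 11.65 without (log2 change -1.33, SE 0.25; limma adjusted p = 0.0011). The 4 rises were 2 without untreated replicate 1 or 2 or CHX replicate 3. The calreticulin gene CRT1b, of the ER chaperones, fell by 1.95 on the log2 scale. Of 5 lectin genes 2 fell, JAL33 and JAL34 (-0.61), and JAL34 lost its call without untreated replicate 3 or CHX replicate 1.

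Wall gene families held calls in both directions, as did genes overall. Of 18 expansin genes, whose proteins loosen walls, 2 rose (11.1%) and 3 fell (16.7%), shares near the 10.1% and 13.5% of all genes. EXLA3 had 13.67, 13.49 and 13.42 with CHX and 9.44, 9.16 and 9.68 without (log2 change 4.10, SE 0.16; limma adjusted p = 3.33e-09). EXPA4 had 7.92, 7.84 and 7.55 with CHX and 11.47, 11.43 and 11.26 without (log2 change -3.62, SE 0.23; limma adjusted p = 9.96e-08). The list median of 0.08 was -0.58 without untreated replicate 2 and -0.23 without CHX replicate 3. Of 10 XTH genes, for enzymes that cut and rejoin xyloglucan, 3 rose and 1 fell. XTH18 had 14.92, 15.04 and 14.84 with CHX and 11.02, 12.17 and 12.07 without (log2 change 3.18, SE 0.33; limma adjusted p = 8e-06). XTH19 changed by 3.87 and XTH26 by 1.69, while EXGT-A3 had 10.62, 10.63 and 10.11 with CHX and 12.35, 12.54 and 12.16 without (log2 change -1.90, SE 0.20; limma adjusted p = 1.01e-05). CSLC04, a synthase of the xyloglucan backbone, rose to 11.56, 11.27 and 11.53 with CHX, against 7.31, 7.64 and 8.90 without (log2 change 3.50, SE 0.31; limma adjusted p = 1.86e-06), alone among 8 genes of cellulose synthases and their relatives. Of 4 pectin methylesterase genes 1 rose, PMEPCRF (1.63), a call lost without untreated replicate 2 or 3 or CHX replicate 2 or 3. Of the lignin genes, HCT fell as above, while CCR2, for a cinnamoyl-CoA reductase, had 11.33, 11.25 and 11.29 with CHX and 9.15, 9.45 and 9.27 without (log2 change 2.005, SE 0.19; limma adjusted p = 3.95e-06).

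Class III peroxidases, secreted enzymes that act on the wall and on hydrogen peroxide, held calls in both directions: 5 of 55 rose (9.09%) and 10 fell (18.2%), shares near the 10.1% and 13.5% of all genes. The median was -0.26 (-0.36 to -0.03 over the alternatives). AT1G14550 had 14.47, 14.30 and 14.02 with CHX and 9.24, 9.32 and 9.02 without (log2 change 5.07, SE 0.19; limma adjusted p = 2.51e-09). AT4G36430 had 7.73, 6.99 and 7.56 with CHX and 10.66, 10.66 and 10.86 without (log2 change -3.30, SE 0.24; limma adjusted p = 3.8e-07), and AT2G35380 changed by -3.11. The rises and falls in this family thus reached similar sizes, with AT2G37130 at -4.80. Of 14 glutathione transferase genes 2 rose and 2 fell (median 0.01, and -0.33 to 0.30 over the alternatives). GSTU22 had 13.29, 13.39 and 13.17 with CHX and 10.76, 11.06 and 10.77 without (log2 change 2.42, SE 0.21; limma adjusted p = 1.84e-06), and GSTU16 had 6.24, 6.52 and 6.89 with CHX and 9.50, 8.87 and 9.10 without (log2 change -2.61, SE 0.39; limma adjusted p = 0.000191). GSTU27 changed by -1.92 and GSTU25 by 1.45, the call of GSTU25 being lost without untreated replicate 2 or CHX replicate 2. Of 12 nitrate, phosphate, sulfate and ammonium transporter genes 1 rose and 2 fell: NRT2.5, a high-affinity nitrate transporter, changed by 2.65, GTR2 by -1.73 and AT2G26690, with 1 CHX array at the floor, by -3.93.

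Plastid-encoded transcripts, which are translated on ribosomes that CHX does not bind, were seldom called. Whether their ribosomes play a part in this was not tested. Of 69 measured 3 fell (4.35%) and none rose, against 13.5% of all genes lower and 10.1% higher. The median of -0.15 ran from -0.54 to 0.06 over the alternatives and was above 0 without untreated replicate 1. The falls were those of the photosystem genes psbL (-1.37), psbF (-1.09) and psaB (-0.82), and without untreated replicate 1 only psaB passed. Of 17 alternatives, psbL and psbF each lost the call in 7 and psaB in 2. In the cells given DEX, 7 of the 69 were called lower with CHX and none higher, with a median of -0.39. There psbL changed by 0.03 and was not called, while psbF (-1.58) and psaB (-0.59) were called lower. For CHX alone, the count of plastid falls was 8 with array weights.

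The CHX effect was measured a second time in cells given DEX. Those 6 arrays share none with the comparison of CHX alone, but they had entered the estimate of the spread behind the calls above, so each effect was also fitted apart. Their ubiquitin 3′ to 5′ ratios were 7.78, 4.86 and 8.59 with CHX and DEX against 5.46, 5.02 and 4.9 with DEX alone. At or under the floor were 15.8%, 6.3% and 13.8% of probe sets against 7.5%, 2.84% and 8.71%. The part of these differences in the results was not tested. Fitted on its own 6 arrays, CHX alone had 2466 probe sets higher and 3695 lower, and CHX with DEX against DEX alone had 2099 higher and 3684 lower. Higher in both were 1812, which are 73.5% of the rises for CHX alone and 86.3% of those with DEX, where 9.23% of all probe sets were called higher with DEX. Lower in both were 2632, 71.2% of the falls for CHX alone and 71.4% of those with DEX, where 16.2% of all were called lower. Of the rises for CHX alone, 6 were called lower with DEX, and of the falls 2 were called higher. Median log2 changes of the rises were 1.68 for CHX alone and 1.56 with DEX, and of the falls -1.55 and -1.49. Across probe sets, which share arrays and are not independent, the changes correlated at 0.758 (Pearson) and 0.604 (Spearman). The overall shifts differed: over all probe sets the median change was -0.05 for CHX alone and -0.46 with DEX, 0.08 and 0.03 with centring and -0.02 and -0.04 after quantile normalization. In the fit of all 12 arrays, 31.0% of probe sets were called for CHX with DEX, 10.6% higher and 20.4% lower, and 34.2% of those were rises, against 59.0% with centring and 48.5% after quantile normalization.

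All 30 largest changes named above were called in the same direction with DEX. AT1G14730 had 12.79, 12.64 and 12.55 with CHX and DEX against 5.01, 6.93 and 4.0 with DEX alone, a log2 change of 7.35 that depends on the floor, where 1 array with DEX alone lay. For PYK10 the change with DEX was -4.47 and for HCT -5.79. Of the ribosomal protein genes, 61 of 84 for the 60S subunit and 36 of 49 for the 40S subunit were called lower with DEX. Among all probe sets, 20.4% were called lower with DEX and 16.1% for CHX alone. The median change over all probe sets was itself lower with DEX (-0.46, against -0.05 for CHX alone), and 0.03 and 0.08 with centring. Some list medians, given here without centring, differed too, several by about as much as that shift. Those of the lectins were -0.61 for CHX alone and -2.03 with DEX, of expansins 0.08 and -1.23, and of glutathione transferases 0.01 and -1.02. The lectin value with DEX is that of JAL23, at the floor on 2 arrays with CHX and DEX. Medians were also lower with DEX for ERF and CBF genes (0.82 and 0.25), WRKY genes (0.52 and 0.08) and ubiquitin ligases (0.44 and -0.14). So were those of the chitinase list (0.18 and -0.68) and ribosome assembly genes (0.55 and 0.24). Calmodulin-like (0.41 and 0.57), Aux/IAA (0.45 and 0.84) and XTH genes (0.28 and 0.41) had higher medians with DEX. No member of any list was called for the difference itself. That test, the interaction of CHX and DEX, called 1 probe set (0.0044%), 260716_at, with 1814 at an unadjusted p under 0.05. This probe set had 7.51, 7.35 and 6.58 with CHX alone and 13.39, 13.10 and 13.15 in untreated cells, and 10.75, 10.50 and 10.74 with CHX and DEX against 13.97, 13.87 and 14.11 with DEX alone. Its log2 change was -6.07 without DEX and -3.32 with it, a difference of 2.75 (with DEX minus without; SE 0.30; limma adjusted p = 0.015). No probe set was called for the difference without any one untreated array, replicate 1 or 2 of DEX alone or replicate 1 of CHX with DEX.

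**Figure D4:**
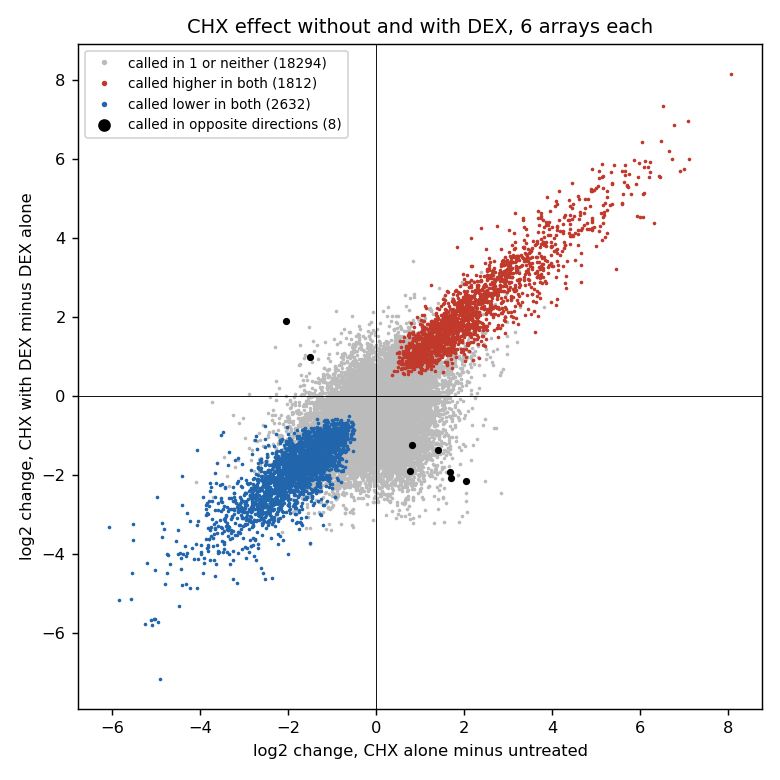
Log2 change of each probe set with CHX alone (horizontal) and with CHX in cells given DEX (vertical), each fitted on its own 6 arrays. The 1812 probe sets called higher in both and the 2632 called lower in both lie in the matching quadrants, and 8 were called in opposite directions.

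Genes that rose lay next to each other more often than the overall share of rises. Among 5849 pairs of adjacent protein-coding genes with both measured, 24.5% of the neighbours of a gene called higher were also higher, against 11.0% of all places in these pairs, and 158 pairs were both higher. For falls the shares were 16.8% and 14.4%, with 142 pairs. Without probe sets marked as shared between transcripts the values were 24.6% against 11.1% and 16.8% against 14.5%. The pairs with the largest rises, ranked by the lesser of their changes, were AT5G07860 and AT5G07870 (log2 changes 6.10 and 6.44), AT1G51915 and AT1G51920 (6.04 and 5.20), AT5G52750 and AT5G52760 (4.86 and 5.66), AT1G22810 and AT1G22830 (6.67 and 4.40), AT1G23830 and AT1G23840 (4.92 and 4.29) and AT2G43610 and AT2G43620 (3.74 and 4.49). Members of the first and last pairs belong to the same family, and whether those of the other pairs are related was not checked. Cross-hybridisation between similar neighbours was not tested. These pairs and the comparison of neighbours were chosen after values of these data had been seen.

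**Figure D5:**
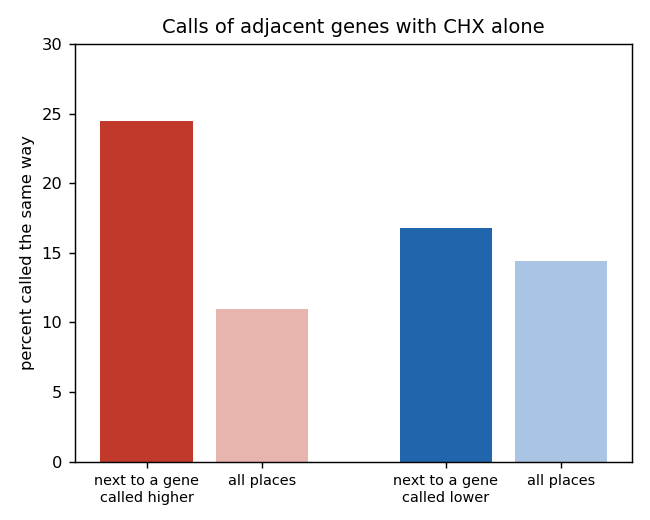
Percent of genes called in the given direction with CHX alone, next to a gene called in that direction and over all places in the 5849 adjacent pairs. The share next to a gene called higher is 24.5% against 11.0%, and next to a gene called lower 16.8% against 14.4%.

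Gene length differed little between the called groups but more at the extremes. The median length of the annotated gene was 2111 bases among genes called higher, 2243 among those called lower and 2085 among those not called. Genes called higher by 16-fold or more had a median of 1555 bases (97 genes), and those called lower by 8-fold or more 1794 (99 genes). Among genes of at most 1425 bases, 10.0% were called lower and 10.1% higher. In 3 further bins of equal size, in order of length, 16.4%, 16.4% and 15.6% were called lower and 10.3% to 11.4% higher.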

How the data were processed

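Total RNA of 12 arrays was labelled with biotin, per the labels. The authors deposited 1 linear intensity for each probe set on each array. The mean trimmed by 2% at each end was 500 on every array, as global scaling leaves it, and the software that did so is not given in these sources. Values under 16 were set to 16 before log2 was taken, and 22746 probe sets were tested after 64 controls were left out. Group means were fitted over all 12 arrays with limma 3.58.1 in R 4.3.3 (lmFit, eBayes with a variance trend), and p-values were adjusted by Benjamini-Hochberg over all probe sets, with a threshold of 0.05. Standard errors come from the fit, with n = 3 arrays per group, and the number of arrays limits the precision.

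The platform annotation gave 1 gene for 13513 probe sets, several for 503 and none for 8730, and 13436 matched RefSeq's gene table of the TAIR10.1 assembly. The probe set of highest mean stood for each of 13355 genes. Roles of genes known here only by locus are general knowledge, not taken from the files. Of 47 gene lists, 27 had at least 3 measured genes, 8 had 1 or 2 and 12 had none; those with none included jasmonate synthesis, aquaporins and cyclins. The comparison, the lists and their members were chosen with earlier results of these data known, so lists are described by counts and medians with no test. Named genes were the 15 largest rises and 15 largest falls among called genes whose arrays did not overlap and were all above the floor, up to 4 called members of each list, and up to 2 unnamed probe sets each way.

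On data simulated for CHX alone over 22746 probe sets, the fit was tested: of 100 changed 2-fold 20 were recovered, of 100 changed 4-fold 74, and 5 of 22546 unchanged were called. The share changed there was far below the 26.9% called in the data, and the adjusted threshold depends on that share. The changed probe sets were also drawn from those well above the floor, with independent noise. These recoveries therefore do not measure those of the comparison itself. Each of these was tried in turn as an alternative: arrays quantile-normalized or centred on their medians; 64 as the floor, or no floor and a pseudocount of 1; the 25% of probe sets of lowest mean left out; limma without its variance trend, without moderation or with array weights; a block for replicate number; a fit of the 6 arrays alone; a change over 2-fold required; and the fit without each array. Those of the interaction and of the adjacent pairs were added after seeing the data. Detection calls were not used here. Tables and figures were made in Python 3.11.15 (pandas 2.3.3, matplotlib 3.10.9).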

Additional observations from a re-analysis of the deposited data

Results flagged for a closer look

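Probe set 260716_at (no annotated gene) was singled out because the CHX effect differed by DEX in a direct test: the interaction was 2.75 on the log2 scale (SE 0.30; limma adjusted p = 0.015), with log2 changes of -6.07 without DEX and -3.32 with it. It was lower with CHX on all 3 arrays in both settings. Groups of 3 arrays were too small to test for single outlying arrays.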

How the results depend on the processing

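For CHX alone, the 6126 probe sets called became 5105 to 5470 when 1 of the 6 arrays was left out (2100 to 2337 higher and 3005 to 3261 lower). The 2-fold minimum, which asks more of each change, gave 2034 (1003 higher and 1031 lower), and 2148 in place of 7045 for CHX with DEX. All other alternatives stayed within 1.5 times of these counts. Replicate numbers were not taken to pair the arrays, since not every correlation between the deviations of same-numbered arrays from their group means was over 0.1: they were -0.036, 0.137 and 0.197 for CHX alone and untreated cells, and 0.122, 0.294 and 0.068 for CHX with DEX and DEX alone. With the replicate number as a block, 5786 were called, 2356 higher and 3430 lower. The interaction count of 1 was 12 after quantile normalization, 7 with centring, 5 with a pseudocount of 1 and no floor, 15 without the dimmest 25% of probe sets, and 0 with a floor of 64, no variance trend, the unmoderated fit, the replicate block or the 2-fold minimum; it was 0 to 15 with 1 array left out, the 15 coming without CHX replicate 1. The cause was not tested. Of 126 named genes that were called, 81 kept the call in each of up to 17 alternatives that tested them, including all 30 largest rises and falls, and none changed sign. The change of EXPA18, near the floor and not called, was -0.05 without untreated replicate 1 or 3 and ran from -0.33 to 0.87 over all arrays left out. The signal of the dimmest probe sets limits their folds, and 9233 probe sets without a single gene, of which 32.0% were called against 23.5% of the others, are not in any list.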
